A study of Mus musculus with 1778 samples.

Results

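The cells described here were 75 single-cell libraries in which at least 2 of the genes Foxa1, Foxa2, Shh and Nkx2-9 reached 20 CPM (counts scaled to 1000000 per cell), out of 1728 libraries kept. Spike-ins and the 45S ribosomal precursor Rn45s were left out of the scaling. A library was kept if it had 50000 reads or more outside the spike-ins and 1500 or more detected genes, which removed 50 libraries. The libraries came from C57BL/6 mouse embryos that carry Wnt1::Cre and Rosa26TdTomato, an allele pair in which cells that have transcribed Wnt1 become red and their descendants stay red. Cells taken at 4, 6, 8 or 10 somites were sorted singly by flow cytometry and read by Smart-Seq2, a method for whole transcripts, and no source used here gives the gate. All groups carry both alleles, the labels name no treatment, and they call the cells cranial neural crest. No embryo or litter is named, so each stage was treated as 1 pool and no p-value is given. The titles carry a well and a number, as in A01.6150657, and the number was taken to be that of a plate, although the labels do not explain it. The 8 numbers are called plates A to H here in ascending order, so that J23.6150653 lies on plate A, A01.6150657 on plate B, A01.6150662 on plate C, I06.6150663 on plate D, A01.7350589 on plate E, A01.7350590 on plate F, A01.7350657 on plate G and N12.7350658 on plate H.

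The ventral midline of the neural tube, the floor plate, is a strip of neuroepithelium that secretes Sonic hedgehog and patterns the tissue beside it. It forms above the notochord and, at the front of the head, above the prechordal plate, which are mesodermal sources of the same signal. Foxa2 and Foxa1 encode forkhead factors that act in floor plate, notochord and endoderm, Shh encodes the ligand, and Nkx2-9 encodes a homeodomain factor switched on in ventral neural cells close to a hedgehog source. The 4 genes therefore do not separate the 3 tissues, and genes outside the rule were used to describe which tissue the selected cells resemble. Wnt1, whose past activity the reporter marks, is known as a dorsal and midbrain gene.

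A working name for these cells joined Foxa2 with Shh, but Shh reached 20 CPM in only 20 of the 75 cells and had no read in 42. Foxa2 and Nkx2-9 each reached it in 70 cells, Foxa1 in 36, and every cell had Foxa1 or Foxa2. The most frequent combination was Foxa2 with Nkx2-9 alone, in 35 cells. A further 16 had Foxa1, Foxa2 and Nkx2-9, and 11 had all 4 genes. Of the 20 cells with Shh, 16 also had Foxa1. They are therefore called the selected cells here, with Foxa2 and Nkx2-9 as their leading genes. These values chose the cells and are a description.

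The threshold cut through a thin tail of values. The lowest second-highest markers inside it were 20.05, 24.1 and 25.9 CPM, and the highest outside it were 18.03, 17.1 and 16.8 CPM. In 17 selected cells the second marker was under 40 CPM, and in 17 other cells it lay between 10 and 20 CPM. Further cells had 1 marker alone, which was Nkx2-9 in 65, Foxa2 in 22, Foxa1 in 14 and Shh in 1.

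**Figure D1:**
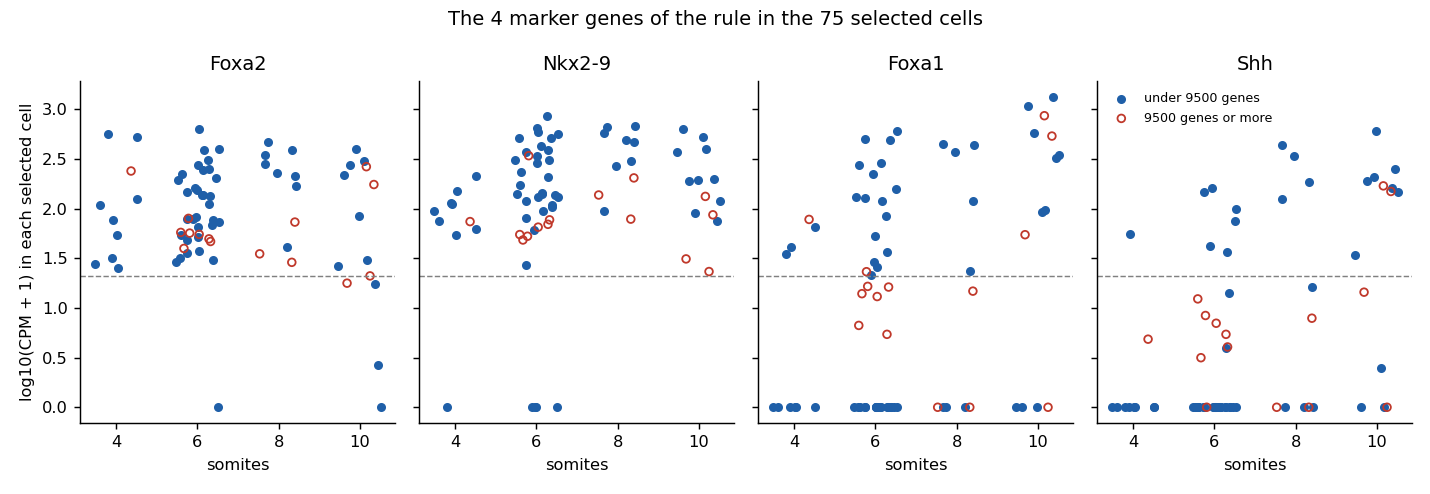
Each point is 1 selected cell. The x axis gives its stage in somites, the y axis the level of 1 marker as log10(CPM + 1), and the dashed line the 20 CPM threshold. Open red circles are libraries with 9500 or more detected genes. Foxa2 and Nkx2-9 lie above the line in 70 cells each, whereas Shh does so in 20, of which 9 were taken at 10 somites.

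Some of the 75 libraries stood apart from the rest. In 15 of them 9500 or more genes were detected (median 10306), against a median of 6858 genes in the other 60, although the median library sizes were alike (405382 and 400378 reads). They were 20% of the selected libraries, and 9.26% of the 1653 other kept libraries were as rich. Of the 15, 11 held at least 2 neural genes together with at least 2 crest genes at 20 CPM, which was the case in 1 of the remaining 60. On plate B at 6 somites, 6 of the 9 selected libraries lay in rows N to P of the plate, had between 10877 and 11367 genes, and all 6 held at least 2 neural, 2 crest, 2 endothelial and 2 erythroid genes. In those 6 libraries Foxa2 ranged only from 38.8 to 78.9 CPM and Nkx2-9 from 47.4 to 76.2 CPM. Whether these wells held more than 1 cell was not tested. Most results that rest on them are given with and without the libraries of 9500 or more genes, a limit set after the data were seen. Lists set against neural cells are given with all libraries, except where stated.

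The selected cells made up 4.34% of kept cells (75 of 1728, exact binomial 95% interval 3.43 to 5.41). There were 10 at 4 somites, a share of 4.55% (interval 2.20 to 8.20), and 40 at 6 somites, a share of 4.79% (3.44 to 6.47). The 8-somite stage had 11, or 4.85% (2.44 to 8.50), and the 10-somite stage 14, or 3.14% (1.73 to 5.21). The intervals of the 4 stages overlap, and they cover counting error only. Without the libraries of 9500 or more genes the share was 3.85% (60 of 1560), and the stage values were 4.15%, 4.16%, 4.37% and 2.72%.

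Across plates the highest share was 12.5% (9 of 72) for 6 somites on plate B, where 7 of the 9 were libraries of 9500 or more genes. It was 3.85% (2 of 52) without them. On plates E, F and H the shares at 6 somites were 4.29% (16 cells), 3.89% (7 cells) and 4.26% (8 cells). All 11 selected cells of 8 somites came from plate B, and 12 of the 14 of 10 somites from plate C, which held no other stage, so for those 12 cells plate and stage cannot be told apart. Plate B also held cells of 6 and 10 somites. Plate D gave 0 of 15 kept cells at 8 somites, which allows a share of up to 20%. Plate A gave 0 of 22 cells, which allows a share of up to 13.6%, and plate G gave 0 of 12, which allows up to 25%.

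**Figure D2:**
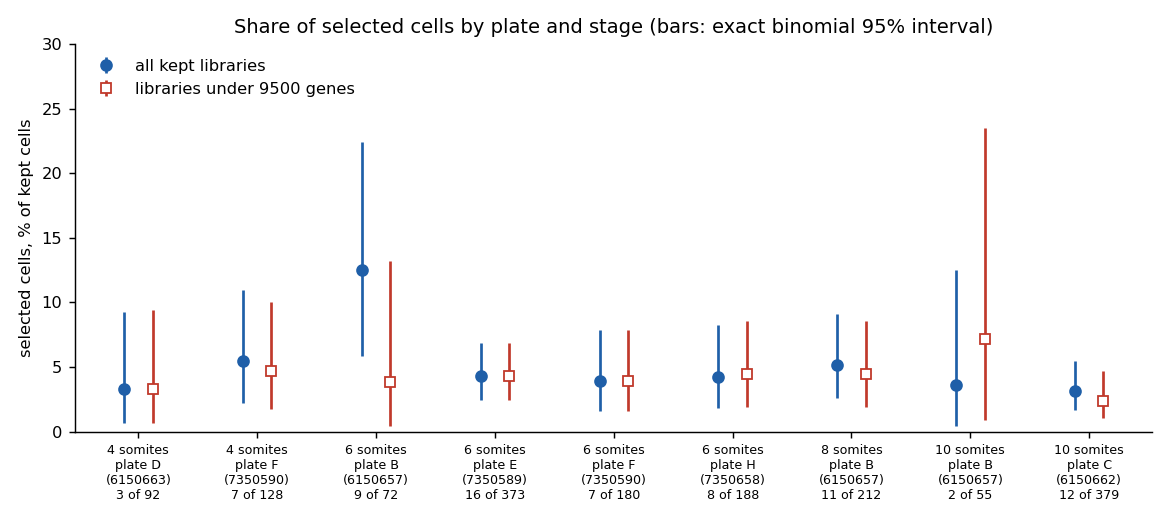
The y axis gives the selected cells as a percent of kept cells, for each plate and stage with at least 50 kept cells on the x axis, with exact binomial 95% intervals as bars. Filled circles use all kept libraries and open squares those under 9500 genes. The value for 6 somites on plate B is 12.5% with all libraries and 3.85% without the rich ones.

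To ask which tissue the cells resembled, levels were set beside the remaining 1653 kept cells as RPM, the summed reads of a pool scaled to 1000000, with 0.5 reads added before a log2 ratio was taken. Of 10353 genes with 5 RPM or more on either side, 5.24% were higher in the selected cells by 2-fold or more and 3.85% were lower by as much. Without the libraries of 9500 or more genes these shares were 6.18% and 5.12% of 10415 genes. The median gene differed by 0.01 on the log2 scale. Ratios are descriptions of 1 pool of cells against another, and the selected cells have the 4 marker genes high by construction.

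Most selected cells carried neural genes. At least 2 of the neural genes Sox1, Sox2, Sox3, Sox21 and Hes5 reached 20 CPM in 67 of 75 selected cells (89.3%, interval 80.1 to 95.3) and in 33.6% of the other cells. Without the rich libraries the count was 53 of 60 (88.3%). Sox2, which maintains neural progenitors, was at 20 CPM in 69 cells and measured 73.6 RPM against 27.5 RPM. With each cell thinned to 50000 reads, Sox2 had a read in 86.7% of selected and 44.4% of other cells. In 50 selected cells the neural genes were the only tissue list with 2 genes at 20 CPM, and 4 cells had 2 genes of no list. A wider neuroepithelium list of 12 genes was less uniform. Of its 10 measured genes 3 were higher and 1 was lower than in other cells, with a median log2 ratio of 0.37. Against other kept cells with at least 2 neural genes, 0 of 11 were higher and 4 were lower. Of these 11, 5 are the neural genes that chose the comparison cells, and 1 of those 5 was lower. The choice favours high levels of those 5 genes in the comparison cells, so nothing is concluded from their part of the count.

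The notochord genes T and Noto were near the floor. Of T (Brachyury), Noto, Chrd and Nog, at least 1 reached 20 CPM in 6 of 75 cells (8.0%) and in 4.72% of other cells, and at least 2 in 1 cell. That cell, of 6 somites, had T and Nog at 46.5 CPM each, no read of Noto or Chrd, Foxa2 at 191.5 CPM, Foxa1 at 131.3 CPM and 2 neural genes. Noto, which is required for node and notochord fate, had no read in the pool, which allows at most 0.0979 RPM. It also measured 0.0 RPM in other kept cells under 9500 genes, so its absence does not set the selected cells apart. T measured 1.34 RPM in selected and 0.91 RPM in other cells. Over the whole notochord list 3 genes were measured, of which Chrd was higher (6.07 against 0.58 RPM, mostly from 1 cell) and the keratins Krt8 and Krt18, which are also on the endoderm list, lay within 2-fold. Set against neural cells alone, all 3 were higher, with a median log2 ratio of 1.39, and T measured 0.09 RPM in those neural cells.

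Endoderm markers were present in a minority. At least 2 of Sox17, Hnf4a, Ihh, Trh, Pyy, Nkx2-3, Nkx2-6 and Gata6 reached 20 CPM in 9 of 75 cells (12%) and in 3.21% of other cells, and 8 of the 9 also held 2 neural genes. Without the rich libraries 5 of 60 remained (8.33%, interval 2.76 to 18.4), against 2.87% of other cells. The pairs were made mostly of Gata6, in 7 of the 9 cells, and Trh, in 6. Hnf4a, Ihh and Pyy, which mark gut endoderm, were at 20 CPM in no selected cell. In other kept cells under 9500 genes they measured only 0.003, 0.21 and 0.08 RPM, so their absence does not set the selected cells apart. Hhex, a foregut and endothelial gene, was lower (5.22 against 11.2 RPM, log2 ratio −1.10). Over the full endoderm list of 22 genes (21 of them matched to the table), 12 were measured, 3 were higher and 1 was lower, with a median log2 ratio of 0.03, and the 3 higher genes were Nkx2-1, Trh and Krt19, of which Nkx2-1 and Trh are also made in the brain. Set against neural cells alone (the comparison with neural cells given further on), 8 of 12 were higher. Among them were Sox17 (6.39 against 2.41 RPM), Gata6 (5.41 against 1.21 RPM) and the keratins Krt8, Krt18 and Krt19. Without the rich libraries the log2 ratios of Sox17, Gata6, Krt8, Krt18 and Krt19 were 1.48, 1.94, 1.12, 1.54 and 3.57. Sox17 and Gata6 then measured only 4.95 and 3.11 RPM in the selected cells, under the 5 RPM minimum. At 20 CPM Sox17 was in 5 of the 60 cells, Gata6 in 4, Krt19 in 5, Krt8 in 31 and Krt18 in 38.

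The prechordal plate list was small but differed more. All 3 of its measured genes were higher, although 1 of them, Chrd, was high through a single cell. Dkk1, a secreted Wnt inhibitor, measured 283.8 RPM against 32.4 RPM, Gsc, a homeodomain factor of the prechordal mesoderm, 8.51 against 0.99 RPM, and Chrd, a BMP antagonist, 6.07 against 0.58 RPM. Chrd was at 20 CPM in only 2 selected cells, and a single cell of 6 somites at 261.7 CPM gave 86.6% of its reads. Without that cell, an alternative added after the data were seen, Chrd measured 0.83 RPM, under the 5 RPM minimum, so that 2 genes of the list remained measured and both were higher. Dkk1 was at 20 CPM in 26 selected cells. Gsc and Dkk1 were both at 20 CPM in 8 selected cells, and 7 of these 8 also had 2 neural genes and all 8 had 2 forebrain genes. These 8 were the only selected cells with at least 2 genes of the list (10.7%), against 1.09% of other cells. At least 1 gene of the list was at 20 CPM in 30 selected cells (40%) and in 21.1% of other cells. Neither Cer1, at 0.69 RPM, nor Nodal, with no read, reached the 5 RPM minimum.

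Floor plate genes outside the rule were higher as a group. Of 12 listed genes 10 were measured, 7 were higher and 0 lower, with a median log2 ratio of 2.14 (2.06 without the rich libraries), and in that smaller comparison 8 were higher. Spon1, the secreted adhesion protein F-spondin, measured 319.7 RPM (Poisson 95% interval 313.4 to 326.1) against 73.3 RPM, and Ntn1, the axon attractant netrin-1, 89.3 against 19.9 RPM. Over the selected cells Spon1 ranged from 0 to 1804 CPM with a median of 220.1 CPM, and 63 of 75 had 20 CPM or more. Slit2, a midline repellent, measured 25.2 against 5.64 RPM, and Sulf1, a heparan sulfate sulfatase, 185.6 against 70.6 RPM. Ferd3l, a basic helix-loop-helix factor of the midbrain floor, measured 6.69 against 0.08 RPM, but at 20 CPM it was found in only 7 cells. Lmx1a (5.61 and 5.64 RPM) and Wnt5a (7.31 and 7.37 RPM) had like levels in both pools, and Corin, a later floor plate gene, had a single read.

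Genes of the ventral tube were higher and those of the dorsal tube lower. All 4 measured genes of the ventral neural list were higher: Nkx6-1 at 23.7 against 1.52 RPM, Nkx6-2 at 47.7 against 6.22 RPM, Nkx2-1 at 39.9 against 0.07 RPM, and Foxa2, which the rule used. Olig2, which marks motor neuron progenitors, had no read. Among 7 measured dorsal genes, 5 fell below the other cells by 2-fold or more and 0 lay above, with a median log2 ratio of −2.11 (−3.14 without the rich libraries). Pax3 measured 6.10 against 39.9 RPM and Msx1 3.46 against 14.99 RPM. Wnt1 itself was read at 31.2 RPM against 57.7 RPM and reached 20 CPM in 27 of 75 selected cells (36%) and 29.5% of other cells.

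Crest genes were low in most selected cells. Each of the 12 measured crest genes was lower by 2-fold or more, with a median log2 ratio of −2.21, which became −4.26 without the rich libraries. At least 2 of Sox10, Foxd3, Tfap2b, Ets1 and Erbb3 reached 20 CPM in 15 of 75 selected cells (20%) and in 47.7% of other cells, and at least 1 did so in 26 of 75 and in 59.5% of other cells. Without the rich libraries at least 2 did so in 3 of 60 cells (5%, interval 1.04 to 13.9) and 43% of others. At least 1 did so in 12 of these 60 cells (20%) and in 55.7% of others. Sox10, the crest and glial regulator, measured 22.1 against 176.9 RPM. Head mesoderm (6 of 6 measured genes) and endothelium (6 of 6) were lower with and without the rich libraries. By cells the endothelial genes stood otherwise, since at least 2 were at 20 CPM in 11 of 75 selected cells (14.7%) and in 8.53% of others, and without the rich libraries in 2 of 60 (3.33%) and in 6.93% of others. Set against neural cells alone, 1 of 2 measured endothelial genes was higher and 0 were lower.

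The erythroid list went the other way with all libraries and not without the rich ones. At least 2 globin or erythroid genes were at 20 CPM in 6 selected cells (8.0%), all of them the row N to P libraries of plate B described above. They were so in 18 other kept cells (1.09%), among them 6 of the 63 others of 6 somites on plate B. The median log2 ratio of the list was 1.05 with all libraries and −9.69 without those of 9500 or more genes.

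**Figure D3:**
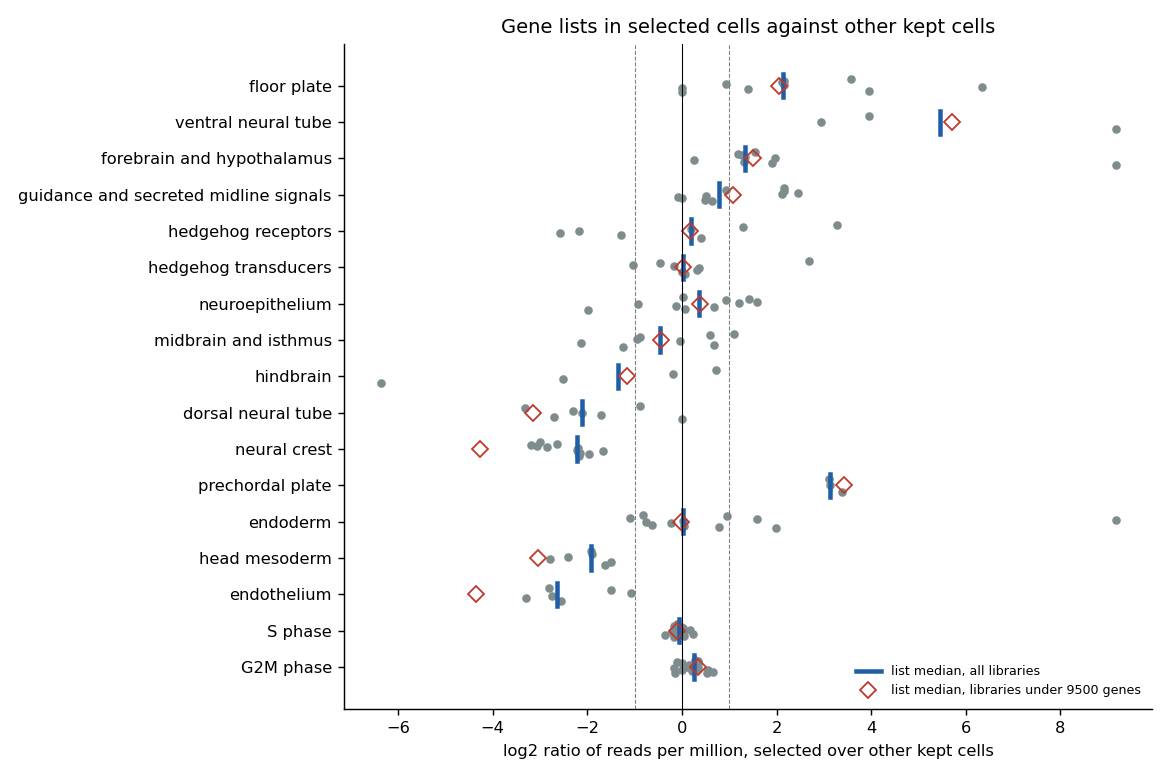
Each grey point is a gene of the list named on the y axis, and the x axis is the log2 ratio of RPM in selected over other kept cells, with dashed lines at 2-fold. Blue bars are list medians with all libraries (over all measured genes, those of the rule included), and red diamonds are medians without libraries of 9500 or more genes. The floor plate median is 2.14 and the crest median −2.21, or −4.26 without the rich libraries.

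Of 7 measured hedgehog receptor and binding genes, 2 were higher by 2-fold or more and 3 were lower. Ptch1, the hedgehog receptor and a direct transcriptional target of the pathway, measured 284.5 RPM (interval 278.6 to 290.5) against 29.5 RPM. It ranged from 0 to 1549 CPM over the selected cells with a median of 194.2 CPM, and 71 of 75 had at least 20 CPM, against 31.2% of other cells. The ratio was positive in all 7 plate and stage groups with at least 5 selected cells, where it lay between 2.69 and 4.07. Gli1 (18.4 against 2.86 RPM), a transcriptional activator that is itself a target, was also higher, and Hhip, a further target that binds the ligand, was under the minimum at 0.82 RPM against 3.10 RPM.

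The co-receptors Cdon, Boc and Gas1 are known to be lowered by hedgehog signalling. Cdon measured 2.90 against 13.3 RPM, Boc 5.38 against 32.2 RPM and Gas1 50.98 against 125.2 RPM. Smo, the signal transducer (log2 ratio 0.20), and Lrp2 (0.41) differed by less than 2-fold. Among 8 transducers Gli1 was higher and Gli3, the main repressor, lower (33.99 against 69.9 RPM, log2 ratio −1.04), and Gli2, Sufu, Kif7, Prkaca, Gsk3b and Csnk1a1 lay within 2-fold.

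The rule's own count of markers ordered some genes it had not used. Ptch1 measured 24.3 RPM in the 1551 cells with no marker, 105.8 RPM in those with 1, 185.004 RPM in the 40 with 2, 413.7 RPM in the 24 with 3 and 345.98 RPM in the 11 with 4. Tgfb2 measured 5.42, 8.92, 18.8, 150.97 and 321.8 RPM over the same groups. Nkx6-1 measured 1.25, 5.47, 9.33, 30.1 and 57.5 RPM, so that it was highest in cells with all 4 markers. Nkx6-2 had another order, with 4.55, 30.9, 74.5, 27.2 and 2.25 RPM, highest in cells with 2 markers. Cells with a single marker thus lay between those with none and those with 2 for Ptch1, Tgfb2, Nkx6-1 and Nkx6-2. They did not for Sox2, at 57.3 RPM with 1 marker and 51.3 RPM with 2, or for Otx2, at 96.02 and 67.9 RPM.

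Among genes outside the rule, 70 were at least 2-fold higher, above the level limits and higher in every plate and stage group with at least 5 selected cells, and the 20 with the largest ratios were taken, of which 19 are named. The 5 largest were Cobl, an actin nucleator (30.9 against 0.91 RPM, log2 ratio 5.08), Calca, the gene of calcitonin and CGRP (81.6 against 3.04 RPM, 4.74), Tgfb2, a secreted TGF-beta ligand (109.8 against 5.65 RPM, 4.28), Nkx6-1 (3.96) and Ero1lb, an oxidase of the endoplasmic reticulum (47.3 against 3.09 RPM, 3.93). Tgfb2 ranged from 0 to 1098 CPM over the selected cells with a median of 38.95 CPM, so that cells with none and cells with much stood side by side. It overlaps an antisense transcript in GENCODE vM21, and no source used here says whether counting used strand, so reads of the pair cannot be told apart. Others, in order, were Ptch1, Igfbp5, Frem1, Arl4a, Depdc7, Ackr3, Nedd9, Hsd11b2, Timp3, Foxb1, Foxd4, Camk1g, Vstm2b and Ntn1, with log2 ratios from 3.27 to 2.17. Several encode secreted or matrix proteins, such as Igfbp5, which binds insulin-like growth factors, Frem1, a basement membrane protein, and Timp3, a metalloprotease inhibitor. None of the 20 was found in all 75 cells at 20 CPM: Ptch1 was in 71, Arl4a in 69, Vstm2b in 67, Tgfb2 in 41, Calca in 37 and Cobl in 23.

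The 10 named lower genes were Crabp1, Nr2f1, Tfap2b, Sox10, Plcg2, Fam212a, Serpinf1, Ets1, Hapln1 and Slfn9. Crabp1, which binds retinoic acid, measured 25.97 against 257.3 RPM and Ets1 32.5 against 235.03 RPM.

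A second comparison set all selected cells against the 33.6% of other kept cells with at least 2 neural genes. The selected cells were not filtered in this way, and 89.3% of them had at least 2 neural genes. Neural identity was therefore shared by most selected cells but not by all. Endoderm, notochord and endothelial genes set against neural cells include reads from the selected cells that lack 2 neural genes. Of 10270 genes, 4.49% were higher in the selected cells by 2-fold or more and 2.43% lower. Floor plate genes stayed higher, 8 of 10 measured with a median log2 ratio of 1.80, and Ptch1 measured 34.1 RPM in the neural others. The dorsal list stayed lower, 6 of 8. The crest list did not, with 1 of 9 measured genes lower. Without the rich libraries crest genes went both ways. Log2 ratios were then −1.57 for Sox9, −1.38 for Snai1, −0.84 for Sox10, 0.44 for Ets1 and 2.78 for Erbb3. Forebrain genes came closer, with 2 of 9 higher and a median of 0.40. The 10 named genes here were Tgfb2, Cobl, Calca, Frem1, Nedd9, Ero1lb, Igfbp5, Ptch1, Nkx6-1 and Timp3, all of them also among the 20 above. Tgfb2 led them with 2.37 RPM in the neural others and a log2 ratio of 5.53.

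The upstream sequences of 2 genes are shown because a forkhead motif, the kind of sequence that Foxa1 and Foxa2 bind, occurs in each: Foxa1, a marker of the rule, and Tgfb2, first among the 10 genes named against other neural cells. The 250 bases before a RefSeq transcript start (build GRCm38.p6) were searched on both strands for TGTTTAC, for its variant with A in the second place (TATTTAC) and for the form that ends in GC (TGTTTGC), and matches are in capitals. The Foxa1 sequence is chr12:57546112-57546361 and the Tgfb2 sequence chr1:186705990-186706239, both on the minus strand and read 5′ to 3′ toward the start, and both inside the span RefSeq gives the gene, which has a longer transcript.
Foxa1: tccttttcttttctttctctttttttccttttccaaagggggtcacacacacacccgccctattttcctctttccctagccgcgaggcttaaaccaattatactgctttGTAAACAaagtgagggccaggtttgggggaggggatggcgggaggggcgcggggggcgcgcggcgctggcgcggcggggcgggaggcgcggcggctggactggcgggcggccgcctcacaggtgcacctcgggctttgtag
Tgfb2: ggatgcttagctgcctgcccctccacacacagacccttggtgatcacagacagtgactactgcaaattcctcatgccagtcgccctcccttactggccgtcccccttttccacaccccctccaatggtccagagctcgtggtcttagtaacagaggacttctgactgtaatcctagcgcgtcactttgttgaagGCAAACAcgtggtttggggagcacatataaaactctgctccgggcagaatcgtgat
The match lies closer to the start in Tgfb2, where it begins 56 bases before it, than in Foxa1. Of the 20 named higher genes 15 had an entry in the promoter table, and 3 of them, Tgfb2, Frem1 and Camk1g, held a forkhead match in at least 1 entry. Counted by entry, since a gene can have several, 4 of the 18 entries of these genes held one, where 9.73% of all 32851 entries do. The Gli motif TGGGTGGTC was in none of the 15 and in 0.225% of all promoters. A match describes the letters and is not evidence of binding.

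Nkx2-9, Nkx2-1 and Foxa1 all lie on chromosome 12 in GRCm38.p6. Nkx2-1 lies at 56531935 to 56536908, Nkx2-9 at 56611389 to 56613569 and Foxa1 at 57540628 to 57548029, with gaps of 74480 and 927058 bases. Foxa2 lies on chromosome 2 (148042877 to 148046969) and Shh on chromosome 5 (28456840 to 28467101).

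The selected cells carried genes of more than 1 level of the head, and position was read from transcripts alone. At least 2 forebrain and hypothalamus genes were at 20 CPM in 39 of 75 cells (52%), against 22.7% of other cells, and 8 of 9 measured genes of that list were higher. Set against other neural cells, 2 of 9 were higher, with a median log2 ratio of 0.40. In the other 36 cells none had Six3, Rax or Nkx2-1, whereas among the 39 Six3 was found in 27, Rax in 21 and Nkx2-1 in 12. These 3 genes belong to the list that made the split and are given as a description.

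Genes outside that list also differed between the groups. Among the 60 cells under 9500 genes, 29 had 2 forebrain genes and 31 did not. Gbx2, which marks the anterior hindbrain, was at 20 CPM in 0 of the 29 and in 14 of the 31, and En1, of the midbrain and isthmus, in 5 and 17. Otx2, of forebrain and midbrain, was in 27 and 13. Gsc was in 9 and 0, and Dkk1 in 20 and 2. Nkx6-2 was in 3 and 15, Igfbp5 in 11 and 22, and Foxa1 in 10 and 21. Shh was in 10 and 8, Ptch1 in 27 and 29, and Spon1 in 26 and 23. Hoxb1 and Hoxa2, of the hindbrain behind the isthmus, reached 20 CPM in none of the 60. With the rich libraries included Gbx2 was in 5 of 39 and 18 of 36 cells.

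**Figure D4:**
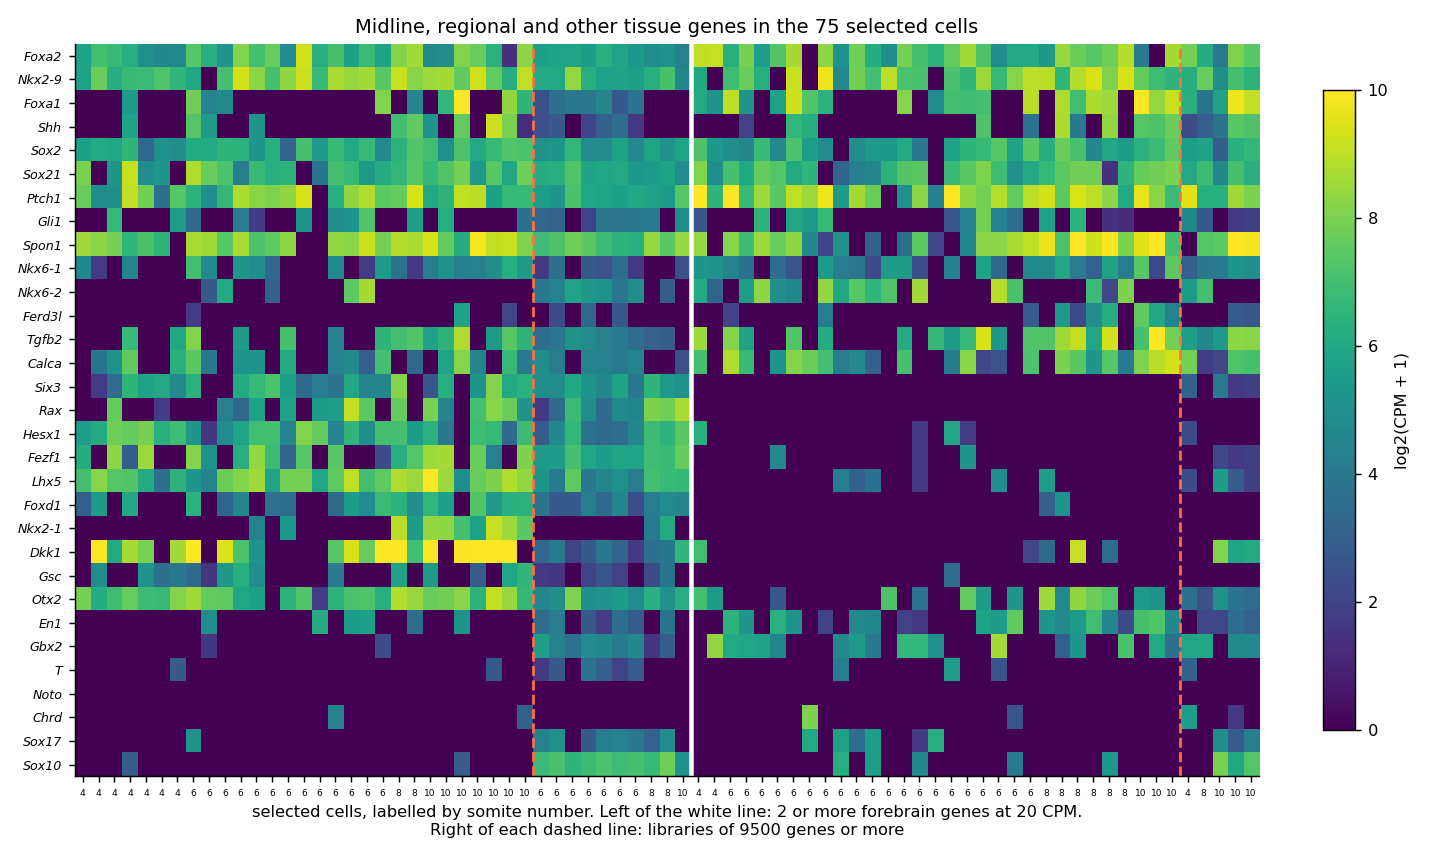
Rows are genes and columns the 75 selected cells, labelled by somite number, with colour for log2(CPM + 1) up to 10. The white line separates 39 cells with at least 2 forebrain genes (left) from 36 without, and libraries of 9500 or more genes lie right of each dashed orange line. Gbx2 is dark in the 29 forebrain cells left of the first dashed line, except for low values under 20 CPM, and Sox10 is bright mainly in the rich libraries.

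Levels of several markers differed by stage. Shh ranged from 0 to 55.1 CPM at 4 somites with a median of 0.0, from 0 to 159.2 CPM at 6 somites with a median of 0.0, from 0 to 435.5 CPM at 8 somites with a median of 6.89, and from 0 to 611.01 CPM at 10 somites with a median of 146.8. The groups overlap, since each stage had cells without a read. At 20 CPM, Shh was in 1 of 10, 6 of 40, 4 of 11 and 9 of 14 cells. Its pooled level was 7.86, 16.8, 95.2 and 132.4 RPM, and 8.12, 19.6, 128.98 and 148.6 RPM without the rich libraries.

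Foxa1 followed the same order, with pooled levels of 23.1, 79.3, 125.4 and 351.5 RPM at 4, 6, 8 and 10 somites, and was at 20 CPM in 4 of 10, 17 of 40, 5 of 11 and 10 of 14 cells. Foxa2 did not. Its medians were 90.98, 77.8, 210.6 and 56.2 CPM in order of stage. Its highest cell, at 641.3 CPM, was of 6 somites. Nkx2-9 had medians of 84.3, 137.2, 300.4 and 159.96 CPM. The stages of Foxa2 and Nkx2-9 overlapped widely, and these 4 genes chose the cells, so their levels are a description.

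Nkx2-1, the regulator of hypothalamus, lung and thyroid, was not used by the rule. It was at 20 CPM in 0 of 10 cells at 4 somites, which allows a share of up to 30%, in 2 of 40 at 6, 3 of 11 at 8 and 7 of 14 at 10. The highest cell had 573.7 CPM and most had no read. Its pooled level was 1.63 RPM at 6 somites, 50.2 at 8 and 152.2 at 10. All 12 cells had Otx2, Lhx5 and Nkx2-9, 10 had Rax, 7 had Shh, and none had Gbx2 or Nkx6-2. In the other kept cells Nkx2-1 stayed at or under 0.12 RPM at every stage. Hnf4a and Ihh, which mark gut, were at 20 CPM in none of the 12 cells. Both were also low in other kept cells under 9500 genes, at 0.003 and 0.21 RPM.

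Ferd3l was seen late. It was in 0 of 10, 0 of 40, 3 of 11 and 4 of 14 cells, with 1.16, 13.9 and 18.3 RPM at 6, 8 and 10 somites. Tgfb2 measured 70.8, 57.04, 188.4 and 193.2 RPM over the 4 stages, and 72.3, 66.3, 252.1 and 201.04 RPM without the rich libraries, when it was highest at 8 somites. Spon1 measured 161.9, 187.1, 561.04 and 531.4 RPM, and its level in other cells was also higher at 8 and 10 somites (106.8 and 106.4 RPM) than at 4 and 6 (47.3 and 50.2 RPM). Cdkn1c, an inhibitor of the cell cycle, measured 82.6, 206.6, 284.3 and 292.2 RPM, and 67.9, 141.3, 181.9 and 236.96 RPM without the rich libraries. None of the 14 S phase or 18 G2M genes differed 2-fold between selected and other cells.

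Nkx6-2 had the opposite pattern at the end of the series. It was at 20 CPM in 2 of 10 cells at 4 somites, 20 of 40 at 6, 3 of 11 at 8 and 0 of 14 at 10, which allows up to 21.4%. The 6-somite cells differed by plate, with 5 of 9 on plate B, 11 of 16 on plate E, 0 of 7 on plate F and 4 of 8 on plate H. Its level was 11.8, 71.3, 64.7 RPM and no read. In the other neural cells it was 46.4 RPM at 10 somites. Ptch1 was high at every stage, with 381.8, 276.7, 299.02 and 220.1 RPM in selected cells and 23.6 to 34.3 RPM in other cells.

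Within plates the stage differences could be read only in part. On plate F, with 7 selected cells each at 4 and 6 somites, Shh was in 1 and 0 cells, Foxa1 in 4 and 3 and Nkx2-1 in 0 and 1. Nkx6-2 was in 2 and 0 cells there, unlike its order over all plates. On plate B, with 9 cells at 6 and 11 at 8 somites, Shh measured 26.9 and 95.2 RPM, Foxa1 37.1 and 125.4 RPM, and Ptch1 60.7 and 299.02 RPM, but 7 of those 9 cells were libraries of 9500 or more genes. The same plate held 2 cells of 10 somites, of which 1 had Shh and 2 had Nkx2-1. At 10 somites 8 of 12 cells on plate C had Shh, and at 6 somites plates E, F and H gave 3 of 16, 0 of 7 and 1 of 8.

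**Figure D5:**
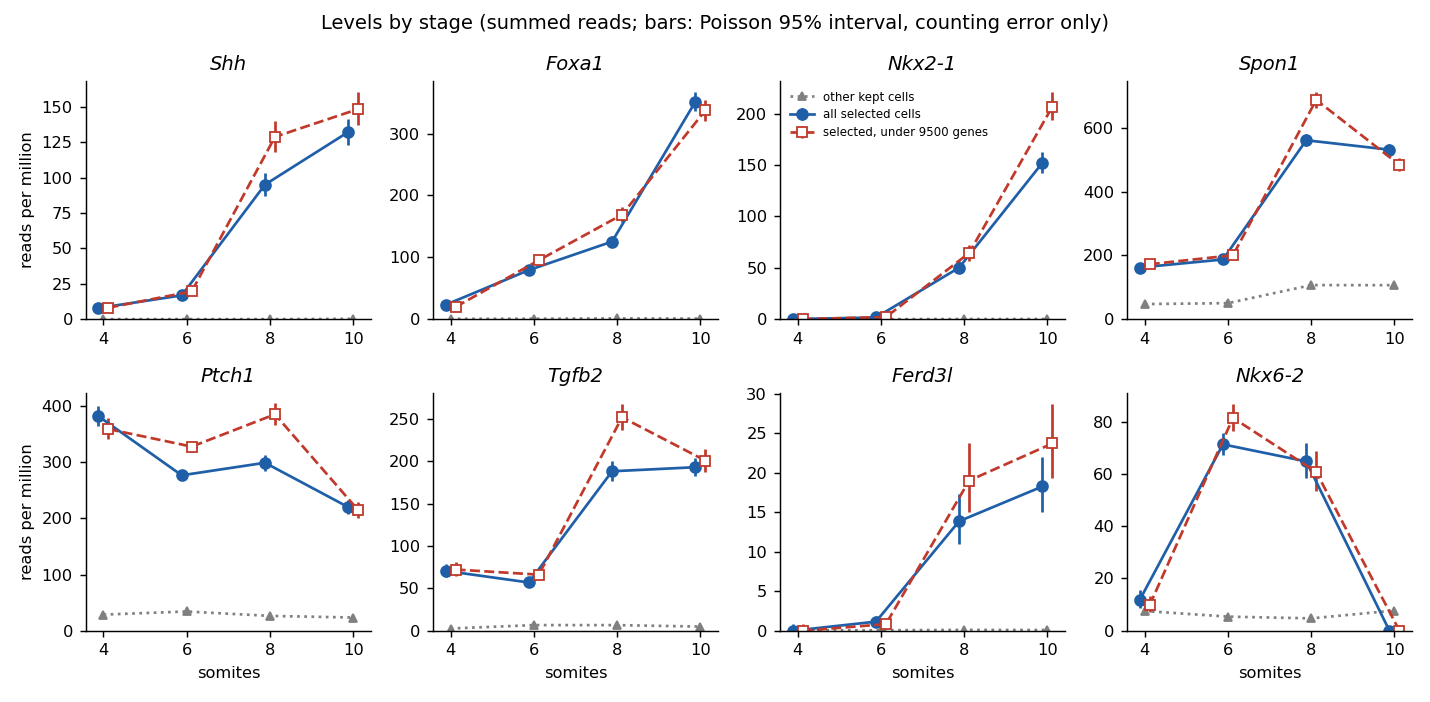
Each panel plots 1 gene, with somites on the x axis and RPM of summed reads on the y axis from 0. Blue circles are all selected cells, red open squares those under 9500 genes, and grey triangles other kept cells, with Poisson 95% intervals for counting error. Shh, Foxa1, Nkx2-1 and Ferd3l are highest at 10 somites with and without the rich libraries, whereas Nkx6-2 has no read there and Ptch1 is lowest there with 220.1 RPM.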

How the data were processed

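Whole-number counts of reads per gene and cell were deposited by the authors as 1 table, without molecular identifiers or normalization. Per the submitters' processing notes, reads were demultiplexed with bcl2fastq 2.18 and aligned with STAR 2.6 to mm10. No source used here gives the counter, annotation, strand setting or cell filters. There were 24920 genes and 92 spike-ins in it, over 1778 cells. Filters on cells and genes, the 2-fold rule and the 0.5 added reads are given with the results. Selected cells had a median of 403190 reads and other cells 386342, spike-ins and Rn45s left out. Poisson and Clopper-Pearson intervals were at 95%, and a count of 0 allows 3 counts, for counting error only. No doublet caller was run. Named genes needed at least 20 RPM, a read in at least 30% of cells thinned to 50000 reads, and the same direction in all 7 plate and stage groups with at least 5 selected cells, and unnamed models, pseudogenes and ribosomal genes were left out. The ratio step was tested on simulated data. The selected cells and the 34 gene lists were chosen with earlier results of these data known. Python 3.11.15, numpy 2.4.6, pandas 2.3.3, scipy 1.17.1, edgeR 4.0.16 and DESeq2 1.42.0 were used, the last 2 for scaling factors alone. Other thresholds, scalings, plates left out and thinning were tried as alternatives. GENCODE vM21 was used for overlaps and RefSeq on GRCm38.p6 for coordinates and sequences. Of 262 genes looked up, 260 matched. Some genes that the rule or the lists named are not reported here.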

Additional observations from a re-analysis of the deposited data

How the results depend on the processing

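The number of selected cells, 75, was 35 with at least 3 markers required, when the shares at 4 and 6 somites were 1.36% and 1.80%. Leaving out each plate gave 53 to 75 cells. The shares then lay between 3.26% and 5.47% at 4 somites, 4.06% and 5.19% at 6, 0.00% and 5.19% at 8, and 2.99% and 3.23% at 10. The 0.00% is the value without plate B, which held all 11 selected cells of 8 somites. It rests on the 15 kept cells of 8 somites on plate D, and 0 of 15 allows a share of up to 20%. The shares of measured genes higher and lower by 2-fold or more, 5.24% and 3.85%, were 11.2% and 17.2% with no minimum RPM, 9.08% and 6.06% with at least 3 markers, and 4.16% to 6.58% and 3.86% to 4.49% with a plate left out. Cells with at least 2 neural genes, 67, were 39 at 50 CPM and 25 with 3 genes required. Cells with 2 notochord genes, 1, were 4 at 5 CPM, 0 at 50 CPM, 6 with 1 gene, 0 with 3 genes and 2 after thinning. Cells with 2 endoderm genes, 9, were 14 at 5 CPM, 2 at 50 CPM, 27 with 1 gene, 3 with 3 genes and 5 without the libraries of 9500 or more genes. The hindbrain median log2 ratio of −1.35 was 0.36 without plate B and −3.01 without plate E. The erythroid median of 1.05 was −0.17 with other cells standardised to plate and stage, −0.75 with at least 3 markers, −10.55 without cells with erythroid or endothelial genes, −10.43 without cells with crest genes and −9.69 without libraries of 9500 or more genes. The last 3 alternatives were chosen after seeing the data, and the cause was not tested. No paired analysis was possible because the replicate numbers only name cells in accession order and no result comes from a test.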

Other observations

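Several smaller gene groups of the midline were measured but stand outside the comparisons above. Slit3, a repellent like Slit2, was at 29.2 RPM in the selected cells against 5.33 RPM in other cells and reached 20 CPM in 25 of them, and 4 of the 10 measured guidance genes were higher by 2-fold or more. Among 4 measured motile cilium genes, Rfx2, a regulator of ciliary genes, was at 20.1 against 3.77 RPM and Ccdc39, a part of the ciliary axoneme, at 7.93 against 3.32 RPM. Foxj1, which switches on motile cilia, was at 0.78 RPM. Of 8 measured genes of the ventral midbrain and dopamine list, 3 were higher and 1 was lower, with a median log2 ratio of 0.29. Aldh1a1, an enzyme of retinoic acid synthesis, was at 11.2 against 0.16 RPM, with 6 cells at 20 CPM or more. Ferd3l and Otx2 were the other higher genes. Against other neural cells 2 genes of the list were higher and 2 lower.

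Of 10 measured midbrain and isthmus genes, 4 were lower in the selected cells than in the other neural cells by 2-fold or more and 0 were higher. Fgf17, a signal of the isthmus, was at 2.06 against 19.5 RPM, Sp8 at 14.5 against 64.7 RPM, Pax8 at 12.5 against 43.7 RPM and Pax2 at 3.72 against 13.4 RPM. Fgf8 was within 2-fold (9.59 against 15.4 RPM).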
